A study of Mus musculus with 3 samples.

Results

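The cleavage, polyadenylation and termination genes comprised 32 protein-coding genes. All but Pabpc1, which encodes a cytoplasmic poly(A)-binding protein, belong to the machinery that ends RNA polymerase II transcripts. Of the 15769 deposited MTR4 LACE-seq peaks, 22 had their midpoint inside 15 of the 32 genes. A peak was assigned to a gene when its midpoint lay between the RefSeq gene start and end on mm10, on either strand. Members were grouped by complex, as CPSF with 6 genes, CstF with 4, CFIm with 3, CFIIm with 2, symplekin with Rbbp6, the poly(A) polymerases with Pabpc1, 10 Integrator genes, and Scaf4 with Scaf8. The data come from KIT(+) cells sorted at postnatal day 8 from testes of mice with the genotype Mtr4WT, crosslinked with UV-C at 400 mJ and precipitated with an antibody to MTR4. LACE-seq maps protein contacts on RNA by sequencing cDNA made from the precipitated fragments. The 3 samples form 1 group with no control precipitation, and the 1 peak list, recorded under replicate 3, has positions and signs but no counts, so depth is unknown and no value has a replicate check. The labels give neither the number of mice nor whether the list pools replicates, but its deposited name reads as merged, so a peak may stand for the pooled samples. Expression is not given either, so contacts of MTR4 and RNA abundance cannot be told apart.

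MTR4 is the RNA helicase of the nuclear exosome, which it reaches through adaptor complexes that recruit it to short-lived or prematurely ended transcripts. The machinery considered here makes transcript ends. CPSF recognises the polyadenylation signal and cuts the RNA, CstF binds downstream of the cut, CFIm binds upstream and influences which site is used, and CFIIm links cleavage to termination. Poly(A) polymerases then add the tail. Integrator cuts the RNA of snRNA genes and of paused polymerases near promoters, and SCAF4 and SCAF8 restrain the use of early polyadenylation sites. Pcf11 is known to limit its own expression through early polyadenylation.

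Peaks were present in 15 of the 32 genes (46.9%, 95% Wilson interval 30.9 to 63.6, counting error only), against 25.5% of all 21883 protein-coding genes. The members were longer, with a median of 31.3 kb against 17.2 kb for all protein-coding genes, and the share with a peak grows with length. Among members of 10 to 20 kb, 3 of 7 had a peak, against 16.8% of protein-coding genes of that length. The count was 6 of 11 at 20 to 40 kb, against 26.0%, 4 of 8 at 40 to 80 kb, against 37.4%, 2 of 4 over 80 kb, against 63.4%, and 0 of 2 up to 10 kb, against 10.2%. Applying the share of each length class to the members gives 9.77 genes with a peak (30.5%), given as a description without a test. Density was 1.76 peaks per 100 kb of gene body in the members and 0.841 per 100 kb in all protein-coding genes. The second value sums genes of every length, so the densities were not matched for gene length. The median fold of peaks over expectation was 0 for both. At least 2 peaks were held by 5 members (15.6%), against 8.55% of protein-coding genes, and 3 peaks by 2 members (6.25%), against 3.26% with 3 or more. Neither of these comparisons was matched for gene length, and the members were longer.

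**Figure D1:**
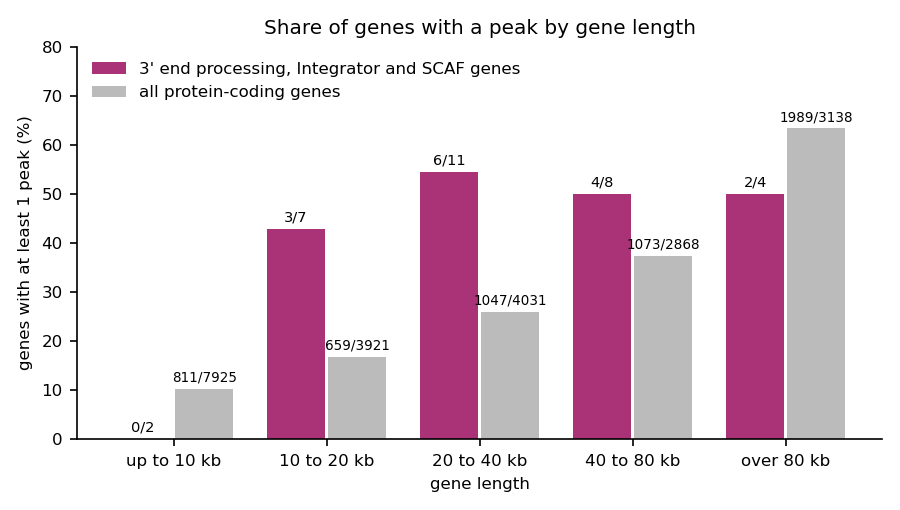
Percentage of genes with at least 1 peak (vertical axis) in 5 classes of gene length (horizontal axis), for the 32 members (purple) and all protein-coding genes (grey), with counts above the bars. Members stood at 6 of 11 against 26.0% at 20 to 40 kb, and at 2 of 4 against 63.4% over 80 kb.

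No member passed the test for an excess of peaks. That test compares each gene with the peak density of its chromosome or of the 500 kb flanking it on each side, whichever is greater, using a 1-sided exact Poisson test and Benjamini-Hochberg adjustment over 34610 protein-coding and long noncoding genes. At an adjusted p of 0.05 it called 93 of them (0.269%), and 0.311% of the protein-coding genes. Each member was expected to hold only 0.0289 to 1.12 peaks. At such numbers a gene with 1 or 2 peaks could hardly pass, so not passing does not show that an excess is absent. An unadjusted p below 0.05 was found for 4 members (Pabpc1, Cstf1, Cpsf2 and Fip1l1), 12.5% of them, against 4.09% of protein-coding genes, not matched for length. For Cstf1, 1 of its 2 peaks also lies in the gene Aurka, so its value and the CstF ratio below depend on a peak of uncertain gene. Together the members held 22 peaks where 13.3 were expected, a 1.66-fold ratio, against a 0.950-fold ratio over all protein-coding genes. By complex, the ratio was highest for CFIIm, at 4.18, from 1 peak where 0.239 were expected. It was 4.02 for the poly(A) polymerases with Pabpc1 (5 peaks, 1.24 expected), 3.28 for CPSF (7 peaks, 2.14 expected) and 1.51 for CstF (2 peaks, 1.32 expected). It was 1.11 for Integrator (5 peaks, 4.50 expected), 1.04 for CFIm, 0.675 for symplekin with Rbbp6 and 0 for Scaf4 with Scaf8. Of the 5 peaks of the poly(A) polymerases with Pabpc1, 3 lay in Pabpc1, where 0.139 were expected. Those 3 also count among the 22 of all members. Between the complexes no difference was tested.

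**Figure D2:**
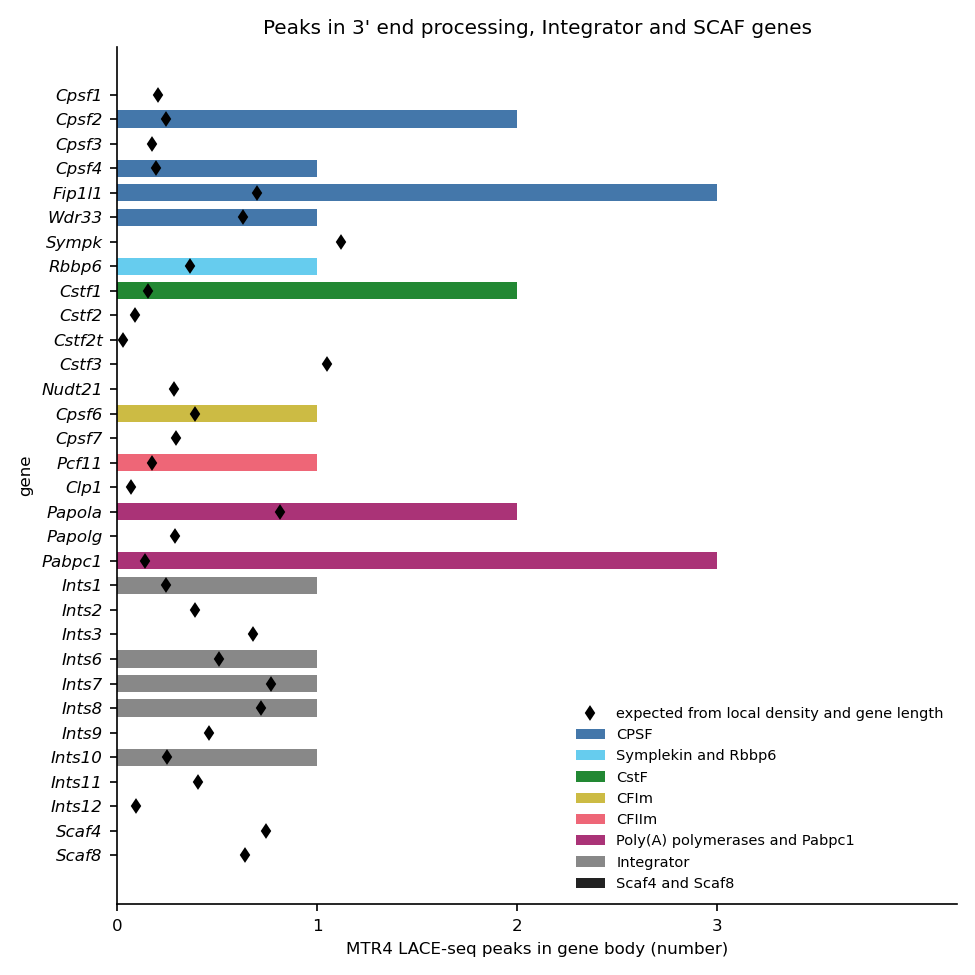
Number of peaks in the gene body (bars, horizontal axis) for each of the 32 genes, coloured by complex, with the number expected from gene length and the higher of the local and chromosome densities (black diamonds). Pabpc1 and Fip1l1 held 3 peaks each, while 17 genes held 0.

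Pabpc1 and Fip1l1 carried the most peaks, 3 each. Pabpc1 encodes the main cytoplasmic poly(A)-binding protein and spans 13.9 kb (chromosome 15, 36595658 to 36609581). Its peaks lay at 36597561 to 36597580 (minus sign), 36598041 to 36598060 (plus) and 36602561 to 36602580 (minus), so the first pair started 480 nt apart with unlike signs. This was 21.5-fold over the 0.139 peaks expected (exact Poisson test, adjusted p = 0.11), rank 384 by fold among protein-coding genes. With the chromosome density alone as background, Pabpc1 stood at 37.3-fold and passed (exact Poisson test, adjusted p = 0.022). Over its alternatives the adjusted p otherwise ran from 0.11 to 1. Whether reads of related genes contribute to these peaks was not tested.

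Fip1l1 encodes the CPSF subunit that binds U-rich RNA and poly(A) polymerase (63.4 kb, chromosome 5, 74535438 to 74598790). A peak lay 212 nt inside its start, another 31.1 kb inside, near the middle of the gene, and the last 56.5 kb inside, at 89.2% of its length. The first pair had the minus sign, opposite to the gene, and the last the plus sign of the gene. Its 3 peaks were 4.30-fold over expectation (exact Poisson test, adjusted p = 1).

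Among the other CPSF genes, Cpsf2, a homologue of the nuclease without cutting activity of its own, held 2 peaks over 30.2 kb, 8.27-fold over expectation (exact Poisson test, adjusted p = 1). They lay 691 nt and 23.8 kb inside its start, on chromosome 12 at 101976441 to 101976460 (plus) and 101999521 to 101999540 (minus). Cpsf4, a zinc finger subunit that contacts the polyadenylation signal, held 1 peak 10.1 kb inside (chromosome 5, 145177341 to 145177360). Wdr33, the other subunit that reads that signal, the longest member, held 1 peak in 105 kb, 1.59-fold over expectation. Cpsf1, the scaffold, and Cpsf3, the endonuclease that cuts the RNA, held 0 peaks where 0.202 and 0.173 were expected. With such expected numbers an absence was not detectable in this list.

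Cstf1 had a peak at the outer edge of the gene, and both peaks of Papola lay near its start. Cstf1, the CstF subunit with WD repeats, held 2 peaks in 11.8 kb, 13.0-fold over expectation (exact Poisson test, adjusted p = 0.90). The first (chromosome 2, 172370661 to 172370680) lay 25 nt inside the gene, the member peak closest to a gene edge, and the second 1.34 kb before the gene end. Since the first also lies in Aurka, the fold of Cstf1 rests in part on a peak of uncertain gene. Papola, the main nuclear poly(A) polymerase, held 2 peaks that started 180 nt apart, 113 and 293 nt inside its start (chromosome 12, 105784781 to 105784800 and 105784961 to 105784980), both with the minus sign. Over its 54.3 kb that was 2.46-fold (exact Poisson test, adjusted p = 1), and no peak lay elsewhere in the gene. Cstf2, Cstf2t and Cstf3 held 0 peaks, as did Papolg, a second nuclear poly(A) polymerase.

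The remaining cleavage factors held at most 1 peak each. Cpsf6, the larger CFIm subunit, had a peak 14.9 kb inside its start, and Nudt21 and Cpsf7, the other CFIm genes, had 0. Pcf11, the CFIIm subunit that promotes termination, had a peak 13.1 kb inside its 26.6 kb, at 49.2% of its length (chromosome 7, 92656981 to 92657000, plus sign, opposite to the gene), 5.79-fold over expectation (exact Poisson test, adjusted p = 1). Clp1, its RNA kinase partner, had 0 in 4.17 kb. Rbbp6, a ubiquitin ligase that activates cleavage, had 1 peak, 913 nt inside the outer edge of the gene. Sympk, the scaffold between CPSF and CstF, had 0 where 1.12 were expected, the highest expected number among the members.

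RefSeq promoter windows (GRCm38.p6, 250 bases before to 50 after a listed start) are printed for 4 genes because the peaks at gene starts lie in or next to them. The peak of Rbbp6 falls in its own window (chr7:122970314-122970613, plus strand), 4 to 23 bases upstream of the listed start, although it is 913 nt inside the outer edge of the gene. The first peak of Cstf1 falls in the window of Aurka (chr2:172370521-172370820, minus strand), a mitotic kinase gene that runs head to head with Cstf1 and overlaps it by 242 nt. It lies 91 to 110 bases upstream of the listed Aurka start and 333 nt upstream of the listed Cstf1 start, so its gene is uncertain. In both windows capitals mark the 20 bases under the peak. In those of Papola (chr12:105784447-105784746, plus strand) and Fip1l1 (chr5:74535241-74535540, plus strand) capitals mark the first 50 transcribed bases, and the nearest peaks lie 93 and 159 nt past the listed start.
Rbbp6: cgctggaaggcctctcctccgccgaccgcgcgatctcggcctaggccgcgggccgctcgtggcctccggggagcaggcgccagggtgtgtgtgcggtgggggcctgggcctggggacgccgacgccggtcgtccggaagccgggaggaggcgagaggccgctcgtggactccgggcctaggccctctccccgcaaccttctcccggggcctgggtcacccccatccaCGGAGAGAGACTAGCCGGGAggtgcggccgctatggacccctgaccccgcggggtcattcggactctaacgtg
Aurka: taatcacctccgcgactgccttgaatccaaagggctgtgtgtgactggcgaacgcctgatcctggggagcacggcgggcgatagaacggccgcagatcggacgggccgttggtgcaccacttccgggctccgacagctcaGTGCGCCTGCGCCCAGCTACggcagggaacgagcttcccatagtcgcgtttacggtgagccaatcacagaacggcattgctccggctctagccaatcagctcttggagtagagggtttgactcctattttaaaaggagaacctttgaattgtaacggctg
Papola: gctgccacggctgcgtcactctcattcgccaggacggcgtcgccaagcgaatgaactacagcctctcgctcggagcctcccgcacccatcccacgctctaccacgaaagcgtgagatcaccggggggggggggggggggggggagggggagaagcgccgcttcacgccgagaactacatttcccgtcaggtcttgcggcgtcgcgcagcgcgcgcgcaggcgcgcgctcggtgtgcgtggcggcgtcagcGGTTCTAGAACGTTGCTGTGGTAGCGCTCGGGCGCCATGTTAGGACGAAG
Fip1l1: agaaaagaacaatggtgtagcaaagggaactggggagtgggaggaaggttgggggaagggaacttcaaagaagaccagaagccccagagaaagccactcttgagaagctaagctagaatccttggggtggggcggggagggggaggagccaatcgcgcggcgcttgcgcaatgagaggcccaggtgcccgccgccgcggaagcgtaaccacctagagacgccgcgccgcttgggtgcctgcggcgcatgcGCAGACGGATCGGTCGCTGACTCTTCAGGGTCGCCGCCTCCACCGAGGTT

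Integrator genes held peaks about as often as their length and surroundings gave. Ints1, Ints6, Ints7, Ints8 and Ints10 had 1 peak each, at folds of 4.09, 1.96, 1.30, 1.40 and 4.06, and Ints2, Ints3, Ints9, Ints11 and Ints12 had 0. Ints11 encodes the endonuclease of the complex and Ints9 its inactive partner. The Ints6 peak lay 353 nt inside its start (chromosome 14, 62760801 to 62760820), where the gene overlaps the long noncoding gene 4931440J10Rik by 663 nt, so either transcript may have given it. The Ints1 peak lay 209 nt from the miRNA gene Mir7037, the only member peak within 1 kb of a small RNA gene, and none lay inside such a gene. Scaf4 and Scaf8 held 0 peaks over 57.2 and 83.9 kb, where 0.743 and 0.640 were expected.

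The rule left peaks just outside a pair of members. A peak lay 782 nt upstream of Scaf8 (chromosome 17, 3114181 to 3114200), inside the long noncoding gene A230045G11Rik, which runs on the other strand. Another lay 1.09 kb upstream of Sympk (chromosome 7, 19023281 to 19023300), inside Foxa3. For the 17 members without a peak, the nearest lay 0.782 to 404 kb away, with a median of 31.9 kb.

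Of the member peaks in genes with a known strand, 7 of 16 lay in the first 1 kb of the gene. Gene strand, from the RefSeq promoter table, was available for 26 members, 11 of which had a peak. The share was 43.8% (95% Wilson interval 23.1 to 66.8, counting error only), against 20.6% of the 6909 peaks in all protein-coding genes with a strand. That interval takes the 16 peaks of 11 genes as independent, though the Papola pair started 180 nt apart, so it is too narrow if peaks of a gene go together. In genes over 10 kb within the members' range of length the share was 23.6%. The 7 peaks were in Cstf1, Papola, Fip1l1, Ints6, Cpsf2 and Rbbp6, so 6 of 26 members (23.1%) had a peak there, against 7.32% of protein-coding genes and 7.56% of those within the members' range of length. The Cstf1 peak among them also lies in Aurka, so its gene is uncertain. None of the 16 lay in the last 1 kb, against 4.63% of all such peaks, a share too low for 16 peaks to show a difference. The gathering is a feature of the whole list: over 11079 genes longer than 10 kb, the first 250 nt inside the start held 63.9 and 74.4 peaks per Mb with the opposite and the same sign, and the last 250 nt before the end held 5.05 and 2.53. The members' share was not tested, since the members were chosen with earlier results known.

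**Figure D3:**
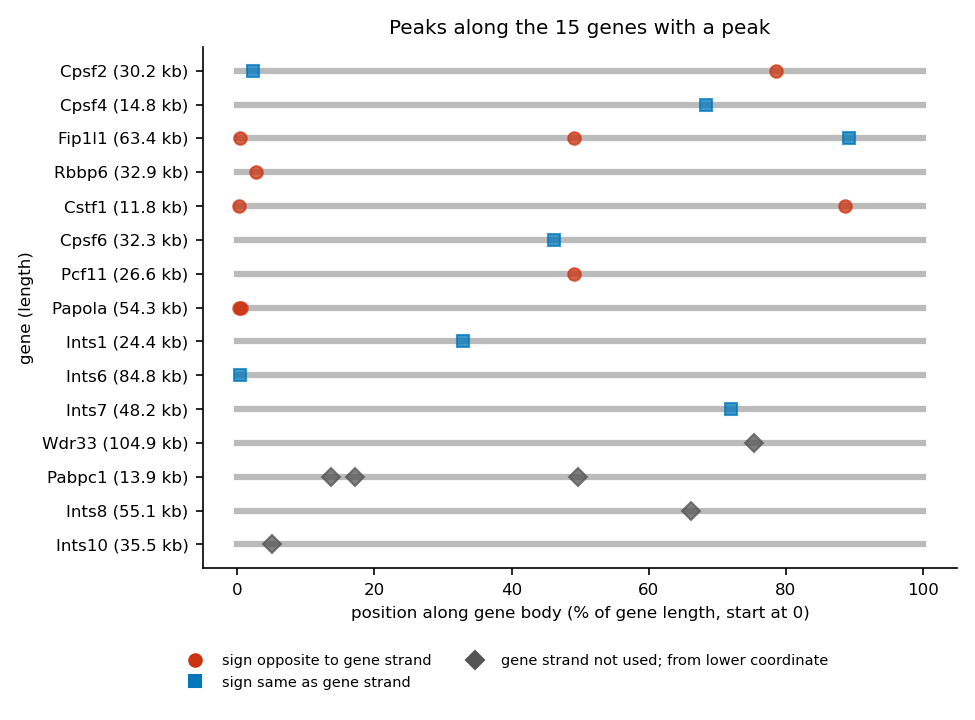
Position of each of the 22 peaks along the 15 genes with a peak, as a percentage of gene length from the gene start (horizontal axis). Red circles have the sign opposite to the gene and blue squares the same sign. Grey diamonds are in genes whose strand was not used and are measured from the lower coordinate. Of the 16 peaks in genes with a strand, 7 lie in the first 1 kb.

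**Figure D4:**
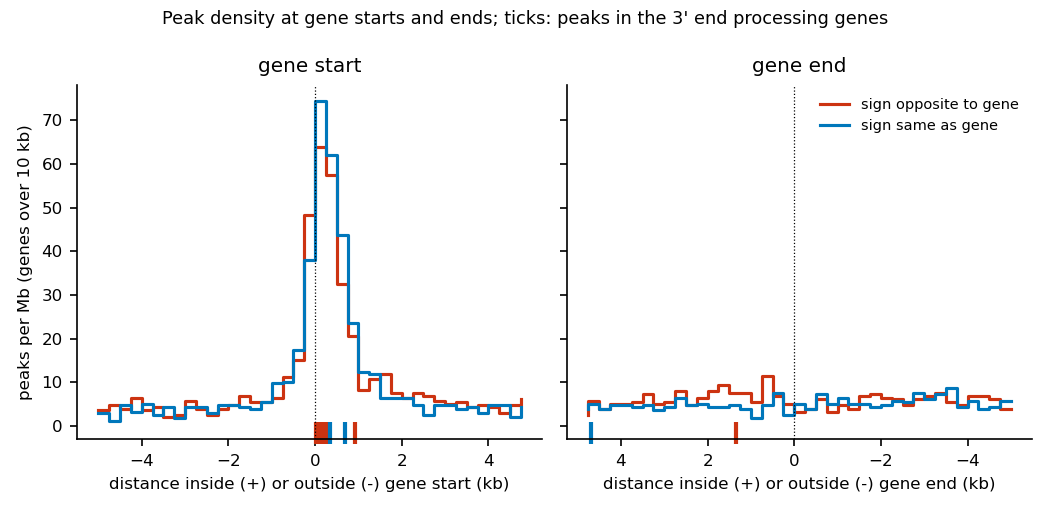
Peak density (peaks per Mb, vertical axis) in bins of 250 nt around the start (left) and end (right) of 11079 protein-coding genes over 10 kb, for peaks with the sign opposite to the gene (red) and the same sign (blue), with positive distances inside the gene. Ticks below 0 mark the members' peaks within 5 kb, 7 of which lie in the first 1 kb. Density is 63.9 and 74.4 per Mb in the first bin inside the start, for the opposite and the same sign.

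The sign did not settle which strand the members' RNA came from. Of the 16 peaks in members with a strand, 9 (56.3%) had the sign opposite to the gene and 7 the same, against 52.6% opposite in all protein-coding genes. In the first 1 kb, 5 of 7 were opposite, against 48.7%, and these 5 include the Cstf1 peak that also lies in Aurka. The share was 57.6% in protein-coding genes with at least 5 peaks. Over all 22 member peaks, 16 (72.7%) had the minus sign, against 61.3% of the whole list. Each member peak was 20 nt wide, the width of 95.7% of all peaks.

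GC made up 65.0% of the bases under the Rbbp6 peak and 75% of those under the Cstf1 and Aurka peak. Whole windows of the 26 members matched in the table had a median of 63.5% GC and 28.5 CG dinucleotides, against 56.3% and 13 for 17491 protein-coding genes. The polyadenylation signal AATAAA, searched on both strands, was in the window of 1 member, Papolg, against 16.9% of protein-coding windows. The TATA box TATAAA was in 0 of 26, against 13.3%. GGTAAG, a form of the 5′ splice site, was in 2, Ints11 and Pcf11, against 8.57%. These motif shares were not matched for the GC of the windows, which was higher in the members. Of the 26, 1 member (Rbbp6) had a peak in its own window, against 2.59% of all 27025 genes of the promoter table, protein-coding or not. Relative to starts listed in that table, 5 of the 16 peaks were within 1 kb downstream and 7 within 1 kb on either side. No share over all protein-coding genes stands beside these counts, so they do not show whether the members differ.

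Of 48 other genes of 3′ end formation, termination, Integrator and polymerase elongation, 47 matched the gene table and 14 (29.8%) held a peak, 20 peaks in all. Their lengths give 10.5 genes with a peak. Pabpc4, a relative of Pabpc1, was the 1 gene of these that passed, with 4 peaks, 24.1-fold over expectation (exact Poisson test, adjusted p = 0.015). Its peaks lay at 9.03, 9.11, 10.8 and 10.9 kb of 16.6 kb (chromosome 4, 123282303 to 123298925), all with the sign opposite to the gene. Each lay in or within 14 nt of a snoRNA gene, Gm25788 or Gm22154, and without peaks in small RNA genes the fold was 12.0 and the test was not passed (exact Poisson test, adjusted p = 0.996). Pabpn1, the nuclear poly(A)-binding protein gene, held 2 peaks 477 and 417 nt before its end, both with the sign opposite to the gene. That was 15.5-fold (exact Poisson test, adjusted p = 0.76), or 7.74-fold with nearby peaks merged. Cdk13, a kinase of the polymerase tail, held 3, and Rprd2, Cdk9, Ints4, Lsm11, Nelfe and Srrt 1 each. Xrn2, the nuclease of termination, held 0. Mtrex, which encodes MTR4, also held 0 where 0.715 were expected, too few for an absence to be detectable.

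Markers of the sorted cells and of other testis cells both carried peaks. KIT(+) spermatogonial markers had a peak in 5 of 10 (Kit and Dmrt1 with 2 each, Kdm5b with 3, Ddx4 and Sohlh2 with 1), while Stra8, Dazl, Sohlh1, Dnmt3b and Sycp3 had 0. Sertoli markers had a peak in 5 of 10, Leydig and interstitial markers in 7 of 10, and blood and vessel markers in 3 of 8, against 25.5% of all protein-coding genes. The share of each length class gives 3.14, 2.57, 2.06 and 3.07 genes with a peak for these 4 lists, in the same order. These are numbers of peaks, not levels of expression, and the part of other cells in the members' peaks was not tested.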

How the data were processed

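The authors' deposited list gives the chromosome, start, end and sign of each peak (unit: other, positions in nt on mm10), with no score. Per the submitters' processing notes, cutadapt 1.15 and Bowtie 1.0.0 were used on mm10. The deposited name of the list points to merged samples, removed duplicates and the peak caller Piranha; the settings are not given in the sources used here. All coordinates are multiples of 20 nt and are printed 1-based.

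Peaks were joined by midpoint to RefSeq genes of GRCm38.p6, the assembly that mm10 is based on. Gene strand came from the RefSeq promoter table, which held 26 of the 32 members and 17491 protein-coding genes. Tests were run in Python 3.11.15 with scipy 1.17.1. The Poisson test was tested on simulated peaks placed at random, evenly along each chromosome or within chosen genes. Deposited peaks gather at gene starts, so that check does not cover their clustering. Depth is unknown, and the number of samples behind the list limits precision.

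Named outside the members were Mtrex, genes overlapping a member's peak, and the 10 of 48 listed pathway genes with the most peaks, of which 1 is not reported here; Xrn2, and Scaf8's and Sympk's neighbours, were chosen after their values were seen. The members and lists were chosen with earlier results of these data known, and the window of 1 kb after the gene start after the data were seen. Alternatives were the background density, merging, small RNA genes, overlap, extended genes, width and sign.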

Additional observations from a re-analysis of the deposited data

How the results depend on the processing

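The count of members with a peak stayed at 14 to 16, and of their peaks at 21 to 23, with peaks of 1 sign under 100 nt apart merged, without peaks in or within 1 kb of small RNA genes, with any overlap of 1 nt and with genes extended by 1 kb. The share of all protein-coding genes with a peak, 25.5% in the main setting, moved as well. With the extended genes it rose to 28.2%, so the rise to 16 members came with a rise over all genes. It fell to 25.0%, with 14 members, once peaks up to 1 kb from a small RNA were dropped. Plus-sign peaks alone gave 6 members with 6 peaks, against 10.8% of protein-coding genes, and minus-sign peaks alone 12 with 16, against 19% of them. Peaks of 40 nt or wider gave 0 members and 0 peaks, against 0.914% of protein-coding genes, since each member peak is 20 nt wide. With the chromosome density alone, 1 member (Pabpc1) passed the Poisson test, in place of 0. The genes that passed over the whole table, 93, became 183 with the chromosome density alone, 53 with nearby peaks merged and 20 with peaks of 40 nt or wider. They were 74 when the local density included the gene itself, an alternative added after seeing the data. Pabpc4 did not pass with nearby peaks merged (12.0-fold, exact Poisson test, adjusted p = 1), without peaks in or near small RNA genes, with plus-sign peaks alone or with wide peaks alone. Of the 16 peaks in members with a strand, 5 lay in the first 500 nt, against 14.3% of peaks in all protein-coding genes with a strand. In the first 2 kb lay 7, against 25.7%, and in the first 1 kb 7, against 20.6%. The other windows were added after seeing the data. The sense and antisense variant was given as shares by sign. No paired analysis was possible because the 3 samples form 1 group with 1 peak list, and leaving out a replicate could not be done for the same reason.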
